A study of Mus musculus with 44 samples.

Results

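The genes described here are the mouse cytochrome P450 genes of families 1, 2 and 3, taken by symbol: a name of Cyp followed by 1, 2 or 3, 1 lower-case letter and a number. Of the 35249 genes of the count table, 55 have such a symbol. Of these, 45 were expressed, meaning that they had 10 or more counts in at least 3 of the 44 libraries. Of the 45, 43 had enough counts to be tested; Cyp2b13 and Cyp2t4 did not and are given by their values only. The 10 that were not expressed are Cyp2b19, Cyp2c65, Cyp2d34, Cyp2j8, Cyp2j11, Cyp2j12, Cyp2j13, Cyp2w1, Cyp3a16 and Cyp3a44. The threshold fell between Cyp2j8, with 10 or more counts in 2 libraries, and Cyp2t4 and Cyp2b13, with as many in 4 and 6. The rule left out 20 further symbols of these families, 17 of them pseudogenes and the others Cyp3a41a, Cyp3a41b and Cyp2ab1.

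Cytochrome P450 enzymes are haem proteins that insert an oxygen atom into their substrate, using electrons that P450 oxidoreductase (Por) and cytochrome b5 deliver at the membrane of the endoplasmic reticulum. Families 1 to 3 hold most of the enzymes of the liver that metabolise drugs, toxins, steroids and polyunsaturated fatty acids. Their genes are under nuclear receptors and other ligand-activated factors: the constitutive androstane receptor CAR (Nr1i3) and the pregnane X receptor PXR (Nr1i2) act on Cyp2b10, Cyp2c and Cyp3a genes, and the aryl hydrocarbon receptor (Ahr) acts on family 1. In mouse liver several are sex-biased under the pattern of pituitary growth hormone, and several are made mainly by the hepatocytes around the central vein or by those around the portal tract.

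The libraries are total RNA from liver of WT mice, of Ripk3-/- mice and of Mlkl-/- mice. RIPK3 is the kinase and MLKL the membrane-disrupting effector of necroptosis, an inflammatory form of cell death, and the series concerns its part in inflammation and liver cancer. From 2 months of age the mice were given normal chow (control diet) or a choline-deficient diet that was low in fat (CD-LFD) or high in fat (CD-HFD), for 6 months. There were 6 WT libraries on each diet, 6 control, 3 CD-LFD and 4 CD-HFD libraries of Ripk3-/- mice, and 6 control, 4 CD-LFD and 3 CD-HFD libraries of Mlkl-/- mice. The labels name neither the sex of the mice, nor the strain, nor the tissue that lacks the gene beyond the genotype itself. Because the control diet is chow, a diet difference covers all that the diets differ in and not choline alone. The labels name 1 library per title and do not say how replicates were taken, so p-values measure the spread between these samples, which may in part be technical.

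Total counts ran from 2476268 to 12471844 in 43 libraries and reached 88204703 in WT CD-LFD replicate 3. Hepatocyte markers dominated every group: Alb, serum albumin, was at 39160 CPM or more in all of them, where CPM is the count scaled to a common library size by TMM (trimmed mean of M values). Genes of the Y chromosome (Ddx3y, Uty, Kdm5d and Eif2s3y) summed to 76.3 CPM or more in every library. Xist, the RNA of the inactive X chromosome, stayed at 2.09 CPM or less except in Ripk3-/- CD-LFD replicate 3, where it was 10.9 CPM. The targeted genes went against 2 labels: Ripk3 was at 1.26 CPM in Ripk3-/- control replicate 5, equal to the WT control median, and Mlkl was at 12.5 CPM in Mlkl-/- CD-HFD replicate 1. A further 2 libraries, WT control replicates 5 and 6, stood apart from the other WT control libraries in several P450 genes, and calls of named genes that were lost without the libraries in question are named as such.

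On the CD-HFD most of these P450 genes fell in WT liver, and a small group at low level on chow rose. Of the 43 genes tested, 27 were lower and 7 higher than on the control diet, where 24.1% of all 14862 genes tested were lower and 23.5% higher. Some of the 43 passed the filter on low counts only through the groups where they are high, and so had to differ: Cyp3a57 reached 10 counts in 10 libraries, all of the CD-HFD, Cyp2s1 in 11 and Cyp2d12 in 25, none of the control diet, and Cyp2b10 in 14, all of the control diet. Cyp2b9 and Cyp1b1 reached it in 1 control library each, and Cyp2c40 and Cyp2c69 in no CD-HFD library. These genes are within the counts of higher and lower genes, which are given as a description. The median log2 difference of the 43 was -0.84, against -0.07 for all genes. Of the 43, 5 lay under the detection floor on 1 side. Set to the smallest fold that the floor allows, they stayed on their side of the median, so it could not change. Scaled by library size alone, which moves the median of all genes to 0.43, 19 were lower and 9 higher. Without WT control replicates 5 and 6, 26 were lower and 7 higher. In bulk liver, fewer hepatocytes and less RNA per hepatocyte cannot be told apart. All 10 macrophage markers measured, 7 of 8 stellate and myofibroblast markers and 6 of 6 cholangiocyte markers were higher in the same comparison. Of 9 hepatocyte markers, 7 were lower and 2 higher, with a median of -0.86. The summed macrophage markers rose from 159.9 to 199.7 CPM in WT control to 1380 to 3559 CPM in WT CD-HFD, and the part of the cell mix in the P450 differences was not tested.

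On the CD-LFD the same WT comparison gave 18 lower and 8 higher genes, beside 14% and 13.7% of all genes. The median was -0.31. With library size alone the split was 13 lower and 9 higher, and without WT control replicates 5 and 6 it was 17 and 8. Of the 10 macrophage markers, 7 were higher, with summed values of 284 to 546 CPM. The 55 genes with such a symbol together took 1.75% of all counts in the median WT control library, 1.49% on the CD-LFD and 1.24% on the CD-HFD.

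**Figure D1:**
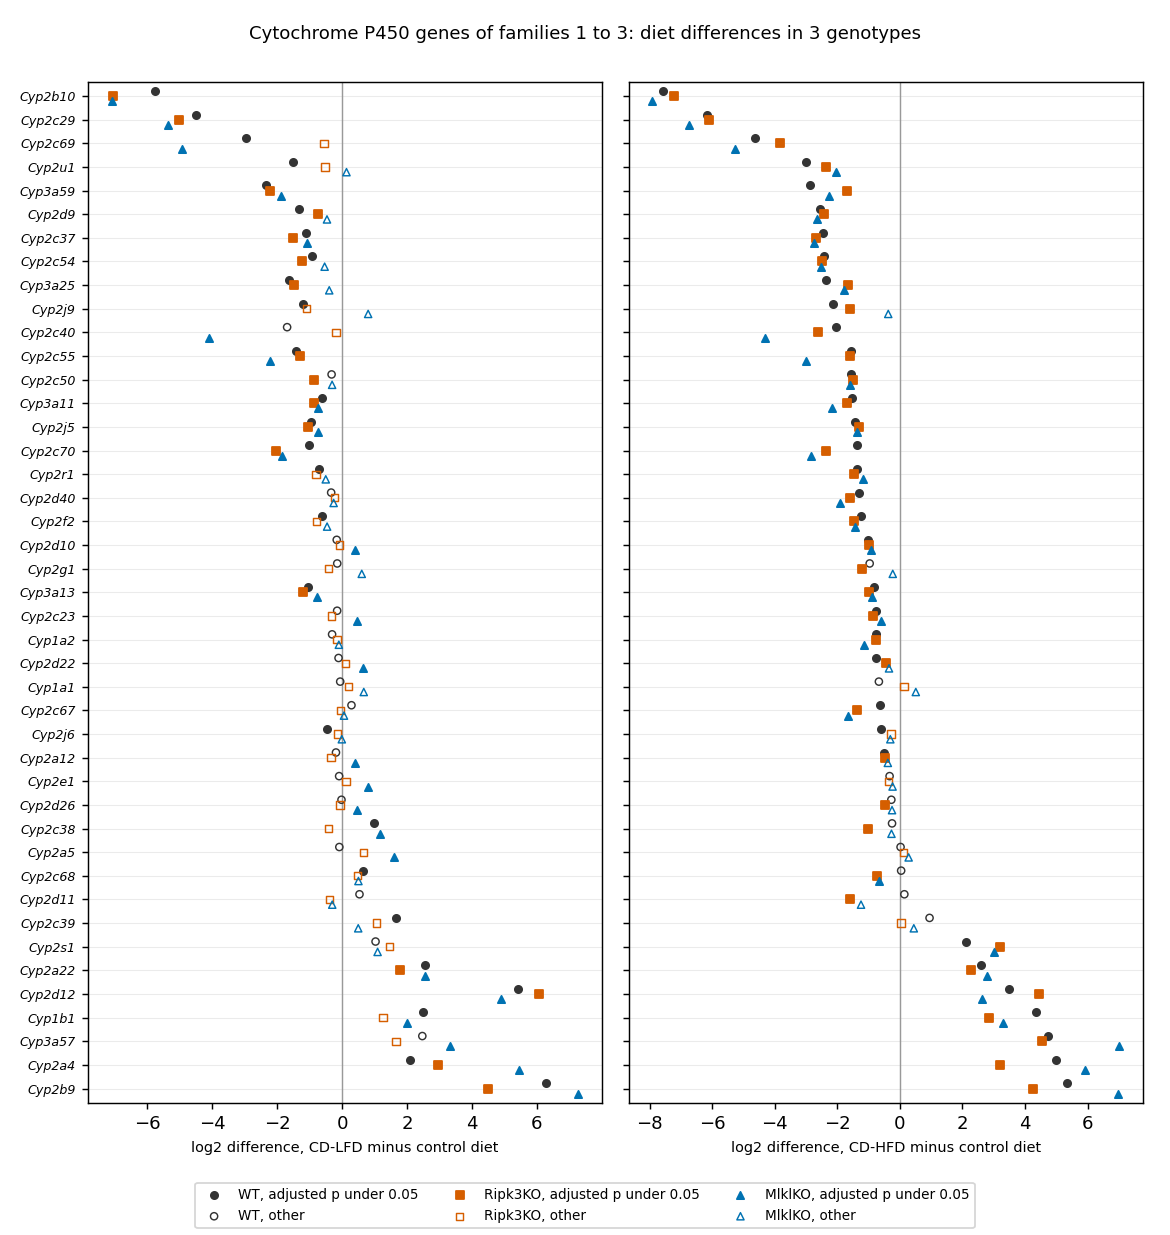
Log2 difference from the control diet (horizontal axis) of the 43 tested genes (vertical axis, ordered by the WT CD-HFD difference), on the CD-LFD (left) and the CD-HFD (right); each point is 1 genotype and filled points passed an adjusted p of 0.05. Cyp2b10 and Cyp2c29 are the lowest points in all 3 genotypes, and Cyp2b9, Cyp2a4, Cyp2a22 and Cyp2d12 are filled and right of 0 in all 3 on both diets; points of genes under the detection floor on 1 side are fitted values and show a direction, not a size.

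Both choline-deficient diets took Cyp2b10, the classical CAR target of mouse liver, down to the detection floor. WT control libraries held 1.71 to 12.8 CPM (median 2.98). On the CD-LFD the values were 0 to 0.279 CPM (median 0.0516), and on the CD-HFD only 1 of 6 libraries had any count, at 0.109 CPM. All 12 values lie at or under the floor, which is 3 counts in the smallest library of a group, 1.37 CPM in WT control and 0.542 and 0.405 CPM on the 2 diets. The fall in mean level was at least 13.8-fold on the CD-HFD (adjusted p = 2.8e-10) and at least 10.3-fold on the CD-LFD (adjusted p = 6.5e-09). The groups did not overlap. Cyp2b10 reached 10 counts in control-diet libraries only, so its p-values here and in the knockouts are given as a description.

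Cyp2b10 fell in the knockouts as well. Ripk3-/- control libraries held 2.16 to 20.6 CPM (median 14.7) and Mlkl-/- control libraries 6.89 to 27 CPM (median 14.2). In the 14 knockout libraries on the 2 diets the highest value was 0.208 CPM, in Ripk3-/- CD-LFD. The falls were at least 27.1-fold (CD-HFD) and at least 21.4-fold (CD-LFD) in Ripk3-/- mice, with adjusted p of 3.3e-10 and 2.5e-07. In Mlkl-/- mice they were at least 28.3-fold and at least 30.8-fold, with adjusted p of 1.0e-08 and 4.8e-09.

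Cyp2b9, which lies in the same Cyp2b gene cluster and is known as a female-predominant enzyme, moved the other way. It was at 0 to 1.22 CPM (median 0.207) in WT control, all under the floor, against 7.31 to 52.4 CPM (median 19) on the CD-LFD and 4.43 to 27.1 CPM (median 10.9) on the CD-HFD. No library of either diet reached down to the control range. The rise was at least 18.1-fold on the CD-LFD and at least 9.34-fold on the CD-HFD (adjusted p = 1.0e-08 and 1.0e-07). No WT control library reached 10 counts of Cyp2b9, so these p-values too are a description. In Ripk3-/- mice the CD-LFD libraries held 22.7, 24.8 and 13.9 CPM and the CD-HFD libraries 6.14, 16.3, 23.3 and 22.5 CPM, with control libraries at 0.194 to 1.68 CPM (median 0.725). In Mlkl-/- mice the values were 17.1, 24.6, 35.7 and 13.2 CPM on the CD-LFD and 28.5, 12.6 and 14.2 CPM on the CD-HFD, and 4 of 6 control libraries had no count. The third gene of the subfamily, Cyp2b13, stayed at or under 1.45 CPM in 43 of 44 libraries and was 8.82 CPM in Ripk3-/- CD-LFD replicate 3, the library with Xist.

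The 250 bases before the start sites of this pair are shown because the genes are close relatives that moved in opposite directions. They are RefSeq sequences on build GRCm38.p6, plus strand, at chr7:25897408-25897657 for Cyp2b10 and chr7:26173159-26173408 for Cyp2b9. Capitals mark the core of the aryl hydrocarbon receptor motif, GCGTG, on either strand.
Cyp2b10: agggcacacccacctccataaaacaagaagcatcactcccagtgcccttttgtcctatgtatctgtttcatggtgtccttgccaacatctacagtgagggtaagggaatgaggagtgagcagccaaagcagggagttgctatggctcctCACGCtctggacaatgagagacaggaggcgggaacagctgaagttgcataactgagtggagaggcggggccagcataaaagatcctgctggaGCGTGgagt
Cyp2b9: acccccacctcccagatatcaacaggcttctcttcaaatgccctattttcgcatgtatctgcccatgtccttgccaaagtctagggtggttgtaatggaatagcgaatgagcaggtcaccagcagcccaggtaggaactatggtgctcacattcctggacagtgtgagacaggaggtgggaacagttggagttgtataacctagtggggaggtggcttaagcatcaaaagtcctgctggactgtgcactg
Over the 300 bases of the RefSeq promoter window (250 before to 50 after the start), 229 bases (76.3%) are identical between the pair, and Cyp2b9 and Cyp2b13 share 99.3%. The Cyp2b10 window has the GCGTG core at positions -101 and -9 from the start, and the Cyp2b9 window has none. The core is common: 32.4% of the 32851 promoters in the table hold it, and 14.6% of the 41 windows that 39 of the 45 expressed genes have.

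Among the other genes that CAR and PXR are known to act on, Cyp2c29 showed the largest fall with a level above the floor in both groups. Cyp2c29, an epoxygenase and steroid hydroxylase that is abundant in mouse liver, was at 134 to 1948 CPM (median 1058) in WT control, with replicates 5 and 6 at 213 and 134 CPM and the other 4 above 921 CPM. It was at 18.5 to 69 CPM (median 42.1) on the CD-LFD and 9 to 31.3 CPM (median 10.6) on the CD-HFD. Even the 2 low control libraries lay above every choline-deficient one. The log2 change was -6.15 ± 0.52 (SE; adjusted p = 8.5e-13) on the CD-HFD and -4.49 ± 0.48 (SE; adjusted p = 2.3e-09) on the CD-LFD, and the CD-HFD level differed from the CD-LFD level by -1.66 ± 0.44 (adjusted p = 0.0042). In Ripk3-/- mice the differences were -6.09 ± 0.62 (CD-HFD) and -5.02 ± 0.67 (CD-LFD), and in Mlkl-/- mice -6.74 ± 0.74 and -5.36 ± 0.60.

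The upstream sequence of Cyp2c29 is shown because of the size of that fall. It is RefSeq sequence on GRCm38.p6, plus strand, chr19:39286835-39287084, with the TATAAA match at position -19 in capitals.
Cyp2c29: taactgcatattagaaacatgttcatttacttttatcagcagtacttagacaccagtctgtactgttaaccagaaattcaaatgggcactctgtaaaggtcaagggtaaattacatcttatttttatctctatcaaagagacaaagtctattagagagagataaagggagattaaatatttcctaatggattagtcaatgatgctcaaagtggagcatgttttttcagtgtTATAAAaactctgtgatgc
TATAAA occurs in 53.7% of the windows of the expressed genes and in 13.6% of all promoters, both strands counted. The window of Cyp2c39, a close relative that rose on the CD-LFD, is 79% identical to that of Cyp2c29.

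Cyp3a11, the main drug-metabolising Cyp3a enzyme of mouse liver and a PXR target, was at 1446 to 4610 CPM (median 2723) in WT control, 1091 to 2460 CPM (median 2135) on the CD-LFD and 638 to 1350 CPM (median 1054) on the CD-HFD. The CD-HFD libraries all lay below the controls, and the CD-LFD libraries overlapped with them. The difference in log2 was -1.52 ± 0.24 (SE; adjusted p = 1.3e-06) on the CD-HFD and -0.63 ± 0.23 (SE; adjusted p = 0.039) on the CD-LFD. The second of these was lost in 8 of 21 alternative analyses, with an adjusted p of 0.23 when scaled by library size alone. Of its relatives, Cyp3a25 differed by -2.36 ± 0.27 (SE; adjusted p = 2.3e-09) and Cyp3a59 by -2.86 ± 0.35 (SE; adjusted p = 7.1e-09) on the CD-HFD, and by -1.64 and -2.34 on the CD-LFD, all called. Cyp3a13 fell on each diet (-0.84 and -1.05). Cyp2c55, a fatty acid hydroxylase inducible through CAR and PXR, changed by -1.56 ± 0.34 and -1.41 ± 0.34. In all, 6 of the 7 genes listed as CAR or PXR responsive were lower in WT on each diet. The exception was Cyp2a5, the coumarin hydroxylase, which differed by 0.02 and -0.09 and was not called. Over all genes, 24.1% were lower on the CD-HFD and 14% on the CD-LFD.

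Cyp2a5 and its neighbour Cyp2a4 parted although their proximal promoters are nearly the same. Cyp2a4, a testosterone 15-alpha-hydroxylase known to be female-predominant, was at 0.51 to 3.19 CPM (median 1.22) in WT control and rose to 20.9 to 84.8 CPM (median 35.1) on the CD-HFD, with no overlap. Its log2 difference came to 4.99 ± 0.65 (SE; adjusted p = 3.1e-08). On the CD-LFD it was at 2.38 to 13.6 CPM (median 4.17), a difference of 2.10 ± 0.70 (SE; adjusted p = 0.021) with overlapping groups. That call was lost in 3 of 21 alternative analyses, with an adjusted p of 0.094 without WT CD-LFD replicate 5. Cyp2a5 was at 331 to 1214 CPM (median 378), 376 to 761 CPM (median 632) and 401 to 882 CPM (median 614) on the control diet, the CD-LFD and the CD-HFD. The high Cyp2a5 values of WT control were those of replicates 2 and 4, at 1214 and 1058 CPM. Those 2 libraries also had the lowest ratios of the clock genes Arntl and Dbp, log2 ratios of -5.84 and -8.01 against 0.10 to 2.73 in the other 4, whose Cyp2a5 was at 331 to 399 CPM. The part of the time of collection, which the labels do not give, was not tested.

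The upstream sequences of this pair are shown because they are so alike: 294 of 300 bases (98%) of the windows are identical, with 5 mismatches and 2 gap bases. They are RefSeq, GRCm38.p6, plus strand, chr7:26306942-26307191 for Cyp2a4 and chr7:26835089-26835338 for Cyp2a5. Capitals mark TATAAA and the GTTAAT letters of an HNF1 half-site.
Cyp2a4: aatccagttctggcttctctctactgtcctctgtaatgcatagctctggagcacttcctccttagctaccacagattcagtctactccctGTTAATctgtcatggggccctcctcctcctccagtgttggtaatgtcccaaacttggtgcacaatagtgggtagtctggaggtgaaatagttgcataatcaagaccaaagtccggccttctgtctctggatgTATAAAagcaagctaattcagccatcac
Cyp2a5: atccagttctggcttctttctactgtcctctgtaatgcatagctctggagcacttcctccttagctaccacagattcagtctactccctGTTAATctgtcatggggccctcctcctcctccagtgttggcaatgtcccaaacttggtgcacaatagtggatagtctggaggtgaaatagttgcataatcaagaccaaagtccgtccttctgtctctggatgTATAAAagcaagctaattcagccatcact
The half-site lies at -160 and -161 and is in 14.6% of the windows of the expressed genes and 7.1% of all promoters. The transcripts are alike too: 36.1% of the 50-base stretches of Cyp2a4 also occur in Cyp2a5, so how the counting assigned reads that fit both can shift the values of Cyp2a4, which is by far the rarer. Among the 45 genes, 16 share over 25% of their 50-base stretches with other genes, Cyp2c40 (72.1%), Cyp2c69 (54.8%) and Cyp2c67 (52.8%) the most, and their single values are uncertain to that extent. Cyp2e1, Cyp2c70, Cyp2c23 and Cyp1b1 are among the 12 that share none.

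Of the genes known to be sex-biased in mouse liver, both male-predominant ones tested fell on each diet, and the female-predominant ones split. Cyp2d9, the male-predominant testosterone 16-alpha-hydroxylase, was at 1190 to 1995 CPM (median 1610) in WT control, 322 to 902 CPM (median 732) on the CD-LFD and 216 to 313 CPM (median 282) on the CD-HFD. The 3 groups did not overlap. The log2 change was -2.56 ± 0.21 (SE; adjusted p = 6.6e-13) on the CD-HFD, -1.32 ± 0.20 (SE; adjusted p = 5.8e-06) on the CD-LFD and -1.24 ± 0.20 between them (adjusted p = 1.6e-05). Cyp2u1, a fatty acid hydroxylase listed as male-predominant, changed by -3.00 ± 0.25 and -1.51 ± 0.24, from 32.2 to 137 CPM (median 56.5) to 5.88 to 9.82 CPM (median 8.03) on the CD-HFD. Of the 8 genes listed as female-predominant, 5 were tested, and Cyp2a4 and Cyp2b9 rose on both diets. Cyp2c69 was called lower on both diets (adjusted p = 0.00097 and 0.016), but 1 library carried its control level: WT control replicate 6 held 7.31 CPM, and the other 5 held 0 to 0.921 CPM, under the floor. Without WT control replicates 5 and 6 neither call held (adjusted p = 0.072 on the CD-HFD and 0.39 on the CD-LFD). Cyp2c40, most of whose sequence recurs in other genes, was called lower on the CD-HFD (-2.04, adjusted p = 0.017). That call was lost in 3 of 21 alternative analyses, with an adjusted p of 0.063 without those 2 libraries and 0.13 with the clock ratio in the fit. Cyp2g1 was not called (-0.97), except with the clock ratio in the fit (adjusted p = 0.039) and without WT control replicate 1 (0.040). Outside the P450 families in question, all 9 male-predominant liver genes were lower on the CD-HFD, Elovl3 by -5.82 ± 0.57 and Slco1a1 by -4.12 ± 0.40, and 6 of 9 on the CD-LFD. Of 8 female-predominant ones, 4 were higher and 2 lower on the CD-HFD. Beside these, 23.5% of all genes were higher and 24.1% lower on the CD-HFD, and 14% lower on the CD-LFD. The 4 Y-linked genes were lower as well, 4 of 4 called with a median of -0.85, and their part in these results was not tested.

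The most abundant member was not called in WT on either diet when all libraries were in the fit, but on the CD-HFD this turned on 2 control libraries. Per kilobase of all annotated exons of a gene merged, Cyp2e1, the ethanol- and acetone-inducible enzyme of the cells around the central vein, was at 2157 CPM per kb in WT control, against 604 for Cyp2d9, 594 for Cyp2d10, 578 for Cyp3a11 and 489 for Cyp2d26. Merged exons can be longer than a single transcript, 5093 against 2344 bases for Cyp3a11, so these 4 are not ranked. The level of Cyp2e1 was 1905 to 6536 CPM (median 5516) in WT control, 2356 to 6051 CPM (median 4347) on the CD-LFD and 2495 to 4349 CPM (median 3998) on the CD-HFD. WT control replicates 5 and 6 held 2525 and 1905 CPM, and the other 4 held 5286 to 6536 CPM, above every CD-HFD library. The log2 differences were -0.33 ± 0.23 (adjusted p = 0.24) and -0.09 ± 0.23 (adjusted p = 0.8). Without WT control replicates 5 and 6 Cyp2e1 was called lower on the CD-HFD (-0.66 ± 0.20, adjusted p = 0.005), and without replicate 6 alone as well (-0.49, adjusted p = 0.049). On the CD-HFD the levels per kilobase were 1715 for Cyp2e1, 404 for Cyp2d26, 301 for Cyp2a5, 291 for Cyp2d10 and 202 for Cyp3a11.

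Other genes known to be zoned did fall on the CD-HFD. Cyp1a2, a caffeine- and arylamine-metabolising enzyme of the pericentral cells, was at 539 to 773 CPM (median 706) in WT control and 349 to 423 CPM (median 406) on the CD-HFD, with no overlap and a log2 difference of -0.75 ± 0.13 (SE; adjusted p = 1.1e-05). That call was lost when scaled by library size alone (-0.25, adjusted p = 0.10). On the CD-LFD it was at 479.7 to 605 CPM (median 538) and not called (-0.31, adjusted p = 0.075), except without WT control replicate 4 or 6 (adjusted p = 0.045 and 0.041). The pericentral Cyp2c37, Cyp2c50 and Cyp2c54 changed by -2.44 ± 0.24, -1.55 ± 0.24 and -2.44 ± 0.26 on the CD-HFD. The periportal Cyp2f2, which activates naphthalene, was at 461 to 1237 CPM (median 731) in WT control, 246 to 950.4 CPM (median 524) on the CD-LFD and 254 to 463 CPM (median 333) on the CD-HFD, a log2 difference of -1.25 ± 0.25 (SE; adjusted p = 5.2e-05) on the latter with overlapping groups. Its CD-LFD difference (-0.63 ± 0.24) lost its call in 10 of 21 alternative analyses. In all, 5 of the 6 genes listed as zoned were lower on the CD-HFD, of both zones. Outside the P450 genes, 3 of 8 pericentral markers were lower and 2 higher, and 4 of 8 periportal markers were lower and 2 higher. The shares of all genes in that comparison were 24.1% lower and 23.5% higher.

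Of 6 tested genes listed as acting on arachidonic acid and other polyunsaturated fatty acids (Cyp2c38, Cyp2c39, Cyp2j5, Cyp2j6, Cyp2j9 and Cyp2u1), 4 were lower and 0 higher on the CD-HFD. Of all genes, 24.1% were lower and 23.5% higher. Cyp2j5, an arachidonic acid epoxygenase, fell from 214 to 580.3 CPM (median 510.3) to 123 to 207 CPM (median 162), a log2 difference of -1.44 ± 0.20 (SE; adjusted p = 9.1e-08) with no overlap. Cyp2j6 differed by -0.61 ± 0.11. Cyp2c23, the epoxygenase also called Cyp2c44, is not in that count and differed by -0.77 ± 0.15. Cyp2j9 changed by -2.14 ± 0.41 on the CD-HFD and -1.21 ± 0.40 on the CD-LFD, but WT control replicates 5 and 6 held 62.4 and 89.5 CPM against 11.7 to 20.1 CPM in the other 4. Without those 2 the CD-HFD difference was -0.98 (adjusted p = 0.019) and the CD-LFD difference -0.05 (adjusted p = 0.93). Cyp2c38 and Cyp2c39 rose on the CD-LFD, Cyp2c38 by 0.97 ± 0.27, and Cyp2c39 from under the floor to a mean at least 1.25-fold higher. On the CD-HFD neither was called, except Cyp2c39 with library size alone. Cyp2r1, a vitamin D 25-hydroxylase, differed by -1.36 ± 0.26 on the CD-HFD. Cyp2c70, which makes the muricholic acids of rodent bile, changed by -1.37 ± 0.31 and -1.01 ± 0.30, and Cyp2d10, Cyp2d22, Cyp2d40 and Cyp2a12 fell on the CD-HFD, with log2 differences of -1.03, -0.75, -1.30 and -0.51. Scaled by library size alone, the CD-HFD calls of Cyp2j6 (adjusted p = 0.36), Cyp2c23 (0.054), Cyp2d22 (0.12), Cyp2a12 (0.86) and Cyp3a13 (0.18) were lost.

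The other rises on the CD-HFD were in genes at a low level on chow. Cyp1b1, an extrahepatic member of family 1 made in stromal cells, was at 0 to 0.51 CPM (median 0.223) in WT control, 0.557 to 2.59 CPM (median 1.36) on the CD-LFD and 2.33 to 10.4 CPM (median 5.07) on the CD-HFD. It rose at least 4.13-fold on the CD-HFD (adjusted p = 6.4e-09) and differed between the 2 diets by 1.88 ± 0.36 (adjusted p = 0.00011). The summed stellate and myofibroblast markers moved with it, from 186 to 229 CPM in WT control to 307 to 599 and 794 to 1519 CPM on the 2 diets, and their part in the rise was not tested. Cyp1a1, the family 1 gene most inducible through the aryl hydrocarbon receptor, was not called on either diet, and stayed at 2.56 CPM or less in every library. Cyp2s1, an enzyme of epithelia, reached 0.405 to 1.75 CPM (median 1.57) on the CD-HFD from 0 to 0.51 CPM (median 0.313), in overlapping groups (adjusted p = 0.0078). The WT control libraries of Cyp2s1 and Cyp3a57 lay under the floor and the CD-HFD means were no higher than it, so neither rise can be sized. Cyp3a57 went from a single count-bearing library of 6 to 0.756 to 2.47 CPM (median 1.24) on the CD-HFD (adjusted p = 7.3e-06). Cyp1b1, Cyp2s1 and Cyp3a57 reached 10 counts in no WT control library, so their p-values against the control diet are a description.

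Cyp2d12 and Cyp2a22 rose on both diets. Cyp2d12 was at 0 to 0.975 CPM (median 0.583) in WT control, 7.67 to 37.2 CPM (median 14.8) on the CD-LFD and 3.86 to 7.84 CPM (median 4.84) on the CD-HFD, so the low-fat diet gave the higher level (CD-HFD minus CD-LFD -1.93 ± 0.41, adjusted p = 0.00048). It rose at least 14.6-fold and at least 3.83-fold. The difference between the diets was lost with the clock ratio in the fit (adjusted p = 0.26). Cyp2a22 was at 1.22 to 3.41 CPM (median 2.64) in WT control and rose by 2.55 ± 0.47 and 2.58 ± 0.47, with no overlap on either diet. Cyp2c68, which is not a gene of low level, was at 73.4 to 158 CPM (median 109.8) in WT control and 124 to 215 CPM (median 179.5) on the CD-LFD. It rose there by 0.65 ± 0.20 (SE; adjusted p = 0.014), in overlapping groups.

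**Figure D2:**
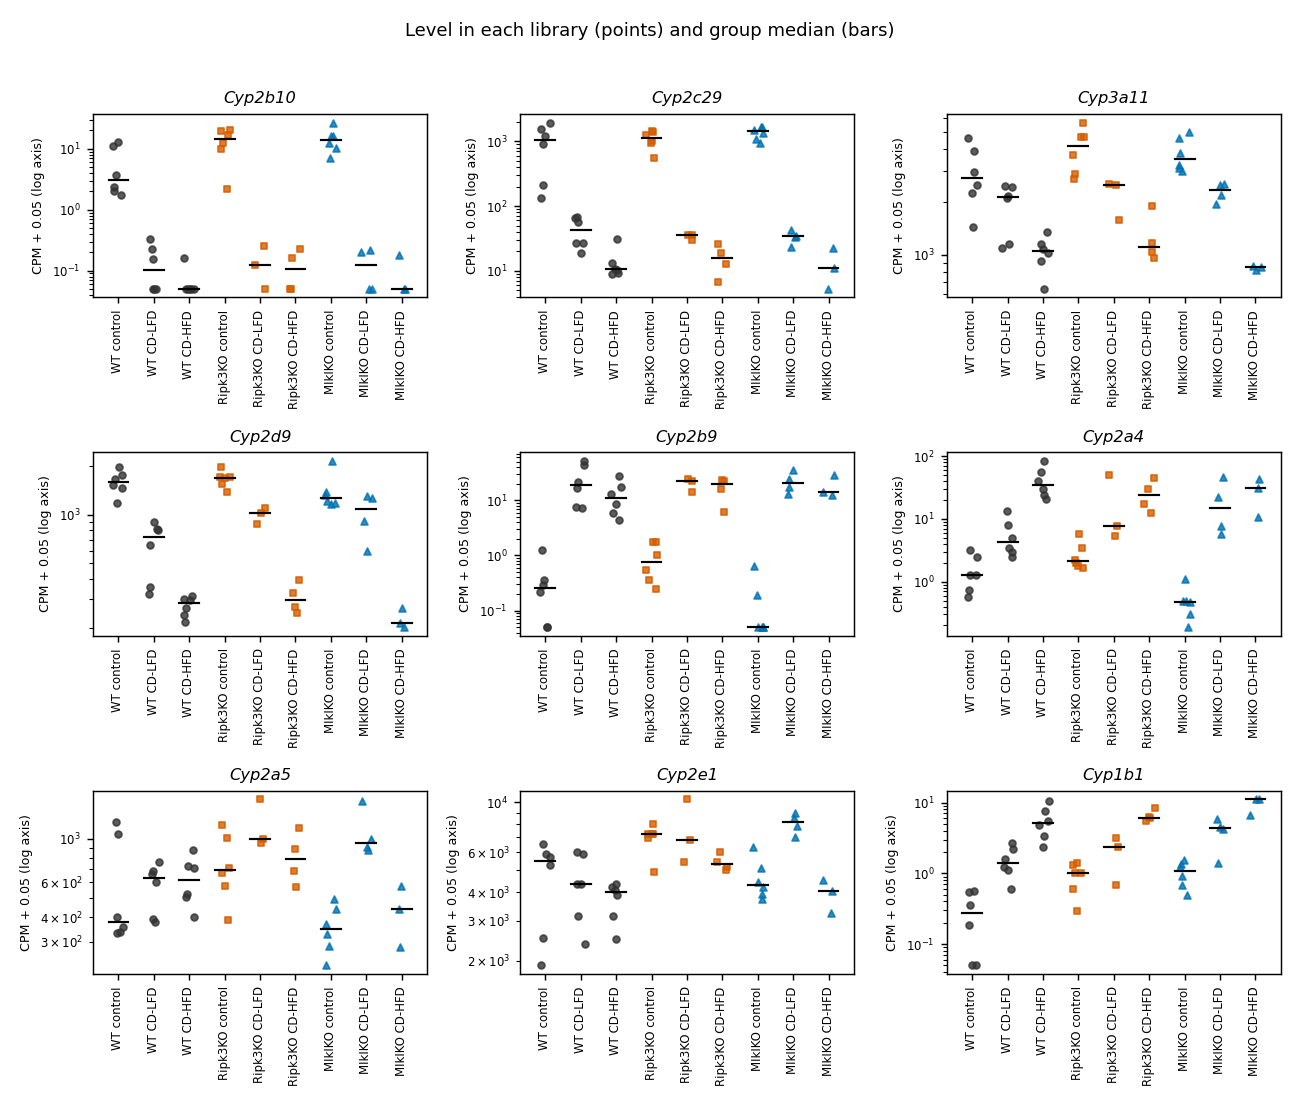
Level of 9 genes in each of the 44 libraries, as CPM plus 0.05 on a log axis, by genotype and diet; points are libraries, bars are group medians, and points on the lowest line had no count. Cyp2b10 and Cyp2c29 drop on both choline-deficient diets in every genotype, Cyp2b9 rises on both, and Cyp2e1 and Cyp2a5 overlap between the diets in WT.

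Set against each other, the high-fat and the low-fat choline-deficient diets differed in 20 genes in WT. On the CD-HFD 17 were lower and 3 higher than on the CD-LFD, beside 7.4% and 13.7% of all genes. The median was -0.61. The 3 higher genes were Cyp2a4 (2.89 ± 0.51), Cyp3a57 (2.26 ± 0.49, adjusted p = 0.077 with the clock ratio in the fit) and Cyp1b1. The 5 largest falls were Cyp2d12, Cyp2c29, Cyp2c54 (-1.52 ± 0.25), Cyp2u1 (-1.49 ± 0.25) and Cyp2c37 (-1.32 ± 0.23). The median clock ratio was -1.40 in WT CD-LFD and -6.09 in WT CD-HFD, against 0.28 in WT control, so it differed along the diet comparisons too. With the ratio in the fit 15 were lower and 2 higher between the diets.

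Most of the members called in WT on the CD-HFD were also called in both knockouts, in comparisons that share no library with each other. In Ripk3-/- mice 31 were lower and 7 higher, beside 21.7% and 24.6% of all genes. In Mlkl-/- mice 24 were lower and 7 higher, beside 20.3% and 24.9%. The 7 higher genes were Cyp1b1, Cyp2a22, Cyp2a4, Cyp2b9, Cyp2d12, Cyp2s1 and Cyp3a57 in all 3 genotypes (the last 3 tested only through the libraries where they are high). In all 3 genotypes 23 were lower, and 0 were called in opposite directions. Of the 23, Cyp2b10, Cyp2c40 and Cyp2c69 reached 10 counts in no CD-HFD library and were tested only through other libraries, where they are higher. The 23 are 85.2% of the 27 lower genes of WT, 74.2% of the 31 of Ripk3-/- and 95.8% of the 24 of Mlkl-/- mice. The same shares over all genes were not counted, so these describe the members and do not set them apart. With library size alone, 20 were lower and 7 higher in each knockout. Without the libraries that went against their labels, 30 were lower and 7 higher in Ripk3-/- mice and 24 and 7 in Mlkl-/- mice.

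The named members had these values. Cyp2d9 changed by -2.44 ± 0.25 in Ripk3-/- and -2.64 ± 0.28 in Mlkl-/- mice, to 394, 326, 270 and 247 CPM and 212, 264 and 201 CPM. Cyp3a11 changed by -1.69 ± 0.28 and -2.17 ± 0.32, to 1889, 1165, 954 and 1039 CPM and 868, 817 and 851 CPM. Both genes lay below all control libraries of their genotype. Cyp2f2 differed by -1.48 ± 0.28 and -1.43 ± 0.32 and Cyp1a2 by -0.76 ± 0.15 and -1.14 ± 0.17, all called. The Cyp1a2 call in Ripk3-/- mice was lost with library size alone (adjusted p = 0.20). Cyp2e1 was not called in either (-0.35 and -0.23). Cyp2a4 rose by 3.21 ± 0.59 and 5.93 ± 0.77. Cyp1b1, at 5.48, 6.13, 5.93 and 8.26 CPM in Ripk3-/- and 6.61, 11.2 and 11 CPM in Mlkl-/- mice, rose by 2.84 ± 0.43 and 3.29 ± 0.43. The summed macrophage markers on this diet were 1937 to 2641 CPM in Ripk3-/- and 2031 to 3269 CPM in Mlkl-/- mice, with all 10 markers called higher in both.

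On the CD-LFD the genotypes gave different counts, from groups of 6 WT, 3 Ripk3-/- and 4 Mlkl-/- libraries. A gene called in 1 genotype and not in another is therefore not by itself a difference between them. In Ripk3-/- mice 13 were lower and 4 higher, beside 10.1% and 14% of all genes, and 9 lower and 8 higher with library size alone. Without replicate 3, the library with Xist, 8 were lower and 2 higher. The Cyp2a4 rise (2.96 ± 0.61), which rests on values of 7.7, 5.26 and 50 CPM, was then no longer called (adjusted p = 0.31), nor was that of Cyp2a22 (adjusted p = 0.18). The fall of Cyp3a11 (-0.88 ± 0.30) was lost in 4 of 18 alternative analyses, with an adjusted p of 0.16 without CD-LFD replicate 1. In Mlkl-/- mice 11 were lower and 14 higher, beside 18.3% and 19.7%. Among the 14, 8 were not called higher in WT on this diet, where 13.7% of all genes were. The share of all genes called higher in Mlkl-/- but not in WT mice was not counted. The 8 included Cyp2a5 (1.61 ± 0.32), Cyp2e1 (0.80 ± 0.25), Cyp2d22 (0.65 ± 0.16), Cyp2d10 (0.40 ± 0.16) and Cyp2d26 (0.46 ± 0.16). The last 2 lost the call in 10 and 4 of 18 alternative analyses. The number of higher genes was 9 in place of 14 when no genes of low count were left out, and 11 with the clock ratio in the fit. The mean of the summed hepatocyte markers was 136400 CPM in Mlkl-/- control and 146700 CPM on the CD-LFD, against 138700 and 105600 CPM in WT. The summed macrophage markers rose in both, from 156.4 to 480 CPM and from 182.2 to 412 CPM. The part of the cell mix in these calls was not tested. Called in all 3 genotypes on the CD-LFD were 9 lower genes (Cyp2b10, Cyp2c29, Cyp2c37, Cyp2c55, Cyp2c70, Cyp2j5, Cyp3a11, Cyp3a13 and Cyp3a59) and 4 higher (Cyp2a22, Cyp2a4, Cyp2b9 and Cyp2d12), of which Cyp3a11 (adjusted p = 0.066), Cyp2c55 (0.12), Cyp2a22 and Cyp2a4 were not called in Ripk3-/- mice without the library with Xist. How many of all genes were called in all 3 genotypes on this diet was not counted. The Cyp3a11 call in Mlkl-/- mice was lost in 5 of 18 alternative analyses, with an adjusted p of 0.082 without CD-LFD replicate 4. Cyp2d9 differed by -0.74 ± 0.26 in Ripk3-/- and -0.47 ± 0.23 in Mlkl-/- mice (adjusted p = 0.029 and 0.1). The first was called, but not in 6 of 18 alternative analyses, with an adjusted p of 0.16 with library size alone. Cyp1a2 (-0.16 and -0.10) and Cyp2f2 (-0.80 and -0.46) were not called in either, but Cyp2f2 was called lower in 4 of 18 alternative analyses in Ripk3-/- mice and in 1 of 18 in Mlkl-/- mice.

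Whether the diet difference itself depended on the genotype was tested by an interaction term. For Mlkl-/- on the CD-LFD 5 genes passed, beside 8.45% of all genes, all with a higher response in the knockout. Cyp2a5 was at 227 to 493 CPM (median 346) in Mlkl-/- control and 995, 881, 905 and 1559 CPM on the CD-LFD, and its interaction was 1.69 ± 0.44 (SE; adjusted p = 0.012). Cyp2u1 differed by -1.51 ± 0.24 in WT and 0.13 ± 0.27 in Mlkl-/- mice, an interaction of 1.64 ± 0.35 (SE; adjusted p = 0.0028). The others were Cyp2d22 (0.77 ± 0.21), Cyp3a25 (1.24 ± 0.39) and Cyp2j9 (2.00 ± 0.61). On the control diet Mlkl-/- mice had less of 4 of the 5 (Cyp2a5, Cyp2u1, Cyp3a25 and Cyp2j9) than WT. Cyp2j9 rested on WT control replicates 5 and 6, with an adjusted p of 0.31 without them, and Cyp3a25 lost its call in 17 of 31 alternative analyses, with an adjusted p of 0.092 without those 2 libraries. Cyp2e1, not called here (0.90 ± 0.34, adjusted p = 0.09), was called without them (1.23 ± 0.28, adjusted p = 0.0043). For Ripk3-/- the CD-LFD and CD-HFD interactions and for Mlkl-/- the CD-HFD interaction called 0 members by edgeR, beside 0.0269%, 0.478% and 4.12% of all genes. At an unadjusted p of 0.05, 3, 5 and 6 members passed, and DESeq2 called 0, 0 and 1.

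**Figure D3:**
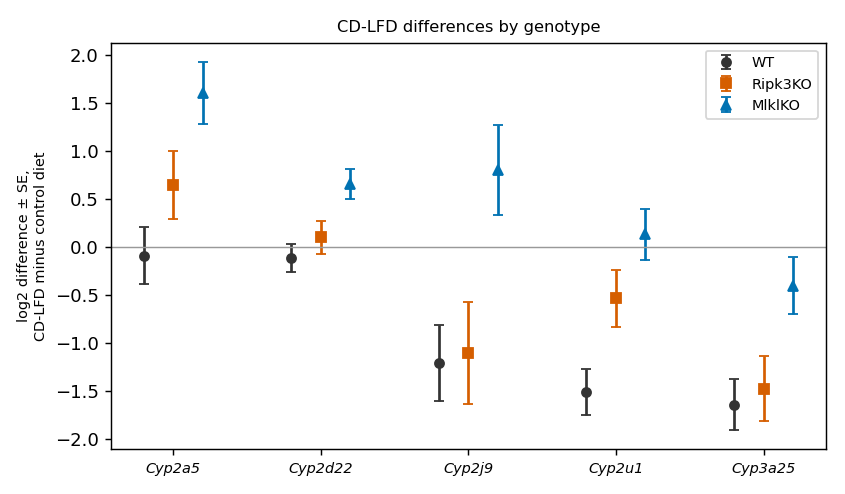
Log2 difference between the CD-LFD and the control diet (vertical axis, with SE as error bars) in WT, Ripk3-/- and Mlkl-/- mice for the 5 genes that passed the interaction test of Mlkl-/- against WT. WT points are below 0, and Mlkl-/- points lie above those of WT for all 5 genes.

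Between genotypes on the same choline-deficient diet few of these P450 genes were called. On the CD-HFD 0 members were called for Ripk3-/- and 0 for Mlkl-/- against WT, beside 0.377% and 0% of all genes by edgeR. At an unadjusted p of 0.05, 5 members passed in each, and DESeq2 called 0 in each. Over all genes in the second comparison, edgeR had 1246 at an unadjusted p of 0.05, and DESeq2 called 2. On the CD-LFD 1 gene was called for Ripk3-/- mice, beside 1.1% of all genes: Cyp2c40 (2.66 ± 0.68), lost without the library with Xist (adjusted p = 0.77). For Mlkl-/- mice 3 were called, beside 2.56%: Cyp2e1 (0.89 ± 0.25), Cyp3a13 (0.93 ± 0.25) and Cyp1b1 (1.36 ± 0.39), all higher. With the clock ratio in the fit, none of these 3 was called (adjusted p = 0.77, 0.74 and 0.28). The median ratio was -6.41 in Mlkl-/- CD-LFD and -1.40 in WT CD-LFD, and its part in these calls was not tested. With any 1 library of those groups left out, 0 to 2 members were called.

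On the control diet Mlkl-/- mice differed from WT in 11 members, 7 higher and 4 lower, beside 27.1% of all genes, a share near that of the members. With library size alone the split was 7 higher and 7 lower. The largest falls were Cyp2j9 (-2.58 ± 0.43) and Cyp2u1 (-1.77 ± 0.24), followed by Cyp3a25 (-1.004 ± 0.26) and Cyp2a5 (-0.79 ± 0.30). Without WT control replicates 5 and 6 Cyp2j9 differed by -1.42. Cyp2a5 lost its call in 9 of 21 alternative analyses, with -0.48 and an adjusted p of 0.21 without WT control replicate 2, and -0.57 and 0.15 without replicate 4, the libraries with high Cyp2a5. The largest rises were Cyp2c40 (2.80 ± 0.54), Cyp1b1 (adjusted p = 0.03, both groups too low to size), Cyp2b10 (1.30 ± 0.40), Cyp2c70 (1.25 ± 0.31) and Cyp2c67 (0.67 ± 0.22). Without WT control replicates 5 and 6 the split was 3 higher and 4 lower, and Cyp1b1 (adjusted p = 0.13), Cyp2b10 (0.099) and Cyp2c67 (0.073) were among the rises no longer called. In Ripk3-/- mice 2 were called, beside 4.47% of all genes: Cyp3a13 was higher (0.99 ± 0.23) and Cyp2u1 lower (-0.84 ± 0.23). With the clock ratio in the fit neither held (adjusted p = 0.28 for Cyp3a13 and 0.71 for Cyp2u1), nor without WT control replicates 5 and 6 (0.076 and 0.48). In each of these analyses 1 other member was called higher. Without the libraries whose targeted gene went against the label, Cyp2u1 was not called (0.086). The clock ratio differed between these groups: its median was 0.28 in WT control, -6.56 in Ripk3-/- control and -4.48 in Mlkl-/- control.

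More of the factors known to act on these genes were lower than higher on the CD-HFD. Of 29 receptors and transcription factors tested, 11 were lower and 1 higher in WT, 15 and 1 in Ripk3-/- and 9 and 2 in Mlkl-/- mice. Over all genes the shares lower were 24.1%, 21.7% and 20.3%, and the shares higher 23.5%, 24.6% and 24.9%. Foxa3, a hepatocyte forkhead factor, differed by -0.96 ± 0.26, -1.64 ± 0.30 and -1.81 ± 0.34, and Hnf4a, the master regulator of hepatocyte genes, by -0.69 ± 0.19, -1.25 ± 0.22 and -1.22 ± 0.24. Rxra, the partner of CAR and PXR, differed by -0.69, -0.70 and -0.83, all called. The transcripts of CAR itself, Nr1i3 (-0.49, -0.13 and 0.10), and of PXR, Nr1i2 (-0.37, -0.34 and 0.23), were not called in any genotype, while Cyp2b10 fell under the floor in all. Nr1i2 was higher in Mlkl-/- mice on the CD-LFD (0.85 ± 0.24). Ghr, the growth hormone receptor, changed by -1.39 ± 0.18, -1.20 ± 0.20 and -1.16 ± 0.23. Cux2, a female-predominant repressor, was not called in WT (0.30) and was higher in Ripk3-/- (1.81 ± 0.58) and Mlkl-/- mice (2.16 ± 0.76).

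Of 17 genes for electron supply and haem, 10 were lower and 3 higher on the CD-HFD in WT, beside 24.1% and 23.5% of all genes. Cyb5b, an outer mitochondrial cytochrome b5, and Cyb5r3, its reductase, differed by -1.62 ± 0.24 and -1.15 ± 0.14, and both were also lower in both knockouts. Por was not called on the CD-HFD in any genotype (-0.47, -0.43 and -0.12). On the CD-LFD Por was lower in WT (-1.75 ± 0.31) and not called in Ripk3-/- (-0.44) or Mlkl-/- mice (-0.08). Hmox1, the enzyme that breaks haem down, was higher in all 3 genotypes on the CD-HFD (2.16 ± 0.28, 0.995 ± 0.29 and 1.49 ± 0.31). Alas1, the rate-limiting enzyme of haem synthesis, was higher in WT (0.87 ± 0.34) and not called in the knockouts.

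**Figure D4:**
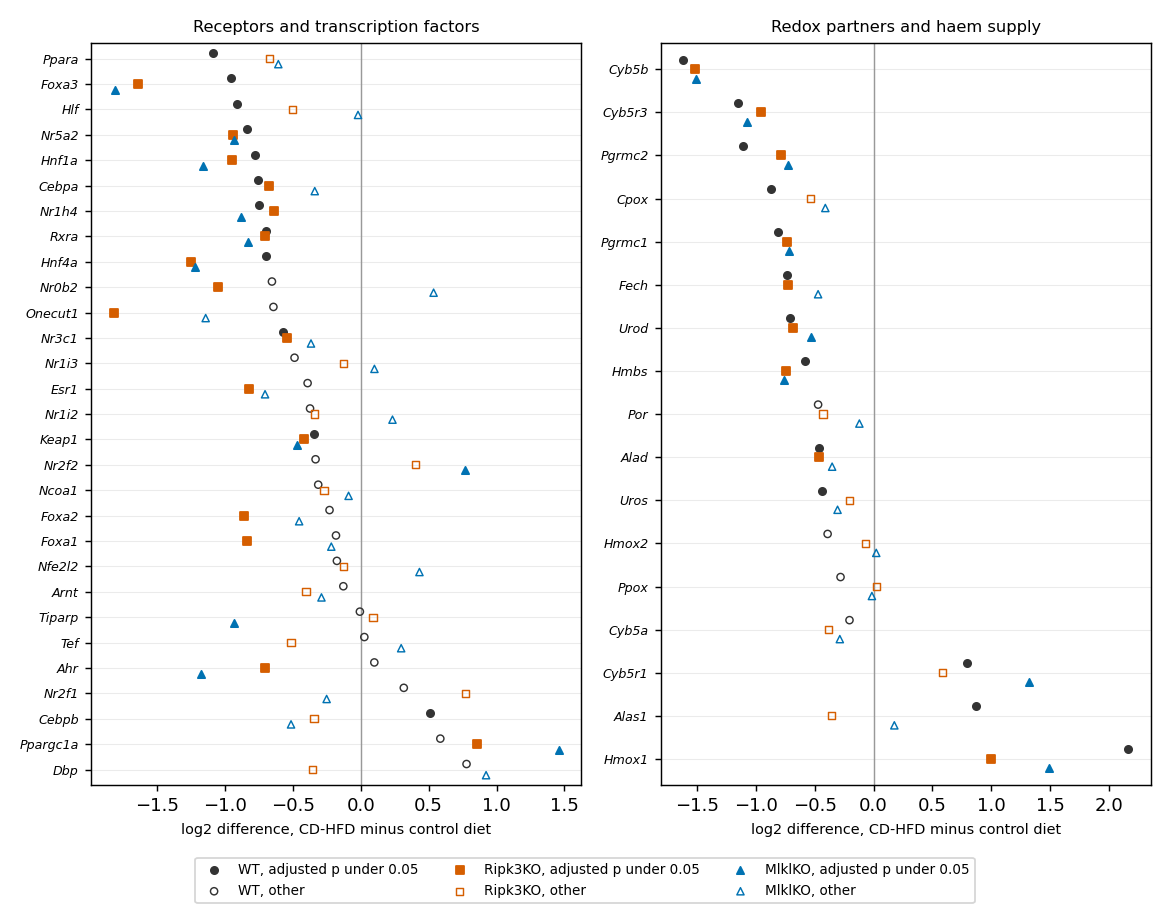
Log2 difference between the CD-HFD and the control diet (horizontal axis) of the receptors and factors (left) and of the redox partners and haem genes (right), by genotype; filled points passed an adjusted p of 0.05. Most filled points lie left of 0, and Nr1i3, Nr1i2 and Por are open in all 3 genotypes.

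P450 genes of other families moved both ways. The genes compared were 23, of families 4, 7, 8, 26, 27, 39 and 51 and with them Cyp17a1. Of these, 14 were lower and 4 higher in WT on the CD-HFD, beside the shares of all genes given above for that comparison. The male-predominant Cyp4a12a and Cyp7b1, an oxysterol hydroxylase, changed by -2.28 ± 0.28 and -2.83 ± 0.31. Cyp4f18, a leukotriene-metabolising enzyme of leukocytes, rose by 3.74 ± 0.47, and the PPAR-alpha target Cyp4a14 by 1.87 ± 0.75 on the CD-HFD and 2.95 ± 0.77 on the CD-LFD.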

How the data were processed

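RNA-seq of mouse liver gave 1 table of whole-number read counts per gene, deposited by the authors with no normalization. The submitters' processing notes name FastQC, STAR, HTSeq, edgeR, limma and the build GRCm39 (mm39), with no roles or versions. The library kit was directional per the labels' protocols; whether the deposited counts used strand, and how reads that fit several genes were handled, is not given in the sources used here.

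All 44 libraries entered 1 edgeR quasi-likelihood fit (edgeR 4.0.16, R 4.3.3) with a term for each of the 9 groups, after filterByExpr with a minimum count of 10 and TMM scaling. This left 14862 genes, and p-values were adjusted over all of them by Benjamini and Hochberg within each comparison. A gene was called at an adjusted p under 0.05. Levels are CPM on TMM-scaled library sizes. The detection floor is 3 counts in the smallest library of a group, and covers counting error only; where 1 group lay wholly at or under it, a fold is given as a lower bound. Depth ran from 2476268 to 88204703 counts. Symbols were found for 34373 of 35249 gene IDs. The fit was tested on simulated counts with known changes. Replicates of a group differed by more than sampling noise, so none was merged.

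The alternatives were RLE size factors, library size alone, no count filter, 10 counts in 3 libraries, DESeq2 1.42.0, only the compared groups, a replicate block, the log2 ratio of Arntl to Dbp as a covariate, leaving out each library, and leaving out the libraries that stood apart. The genes, lists and alternatives, the doubted libraries and the clock covariate included, were chosen with earlier results of these data known. Any expressed gene of the families could be named; up to 15 of the largest falls and 10 of the largest rises were in the WT diet comparisons and up to 5 of each elsewhere, and Cyp1a2, Cyp2b10, Cyp2e1, Cyp2f2, Cyp3a11, Cyp2d9, Cyp2b9 and Cyp2a4 always.

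Promoter windows, exon lengths and transcripts come from a GRCm38 reference and RefSeq on GRCm38.p6, not from the build of the counts, and were used only for sequences, lengths and likeness between genes.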

Additional observations from a re-analysis of the deposited data

Results flagged for a closer look

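Single libraries were looked for by Dixon's criterion, which chance alone passes about 1 time in 20, in 56 sets of 1 gene in 1 group. Sets wholly at or under the floor were left out, and 5 of the rest held a library far from the others. Cyp1a2 was at 349 CPM in WT CD-HFD replicate 2 and at 519.9 CPM in Mlkl-/- CD-LFD replicate 2. Cyp2e1 was at 4899 CPM in Ripk3-/- control replicate 6. In Mlkl-/- control replicate 6, Cyp2d9 was at 2167 CPM and Cyp2a4 at 1.04 CPM, both above the other libraries of the group.

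The response to the CD-LFD differed between Mlkl-/- and WT mice, by the interaction term of the edgeR fit, in 5 of the 43 genes tested, beside 8.45% of all genes. The log2 interaction was 1.69 for Cyp2a5, 0.77 for Cyp2d22, 2.00 for Cyp2j9, 1.64 for Cyp2u1 and 1.24 for Cyp3a25. Cyp2j9 lost its call in 12 of 31 alternative analyses, Cyp3a25 in 17 and Cyp2d22 in 2.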

How the results depend on the processing

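Of the 131 called differences of named genes, 0 reversed under any alternative. Leaving out 1 library kept 1369 of 1486 calls, and the other alternatives kept 1077 of 1154. With 1 library left out, the number of genes called in the Ripk3-/- CD-LFD comparison (17) ran from 10 to 20, that of control Ripk3-/- against WT (2) from 1 to 4, of control Mlkl-/- against WT (11) from 8 to 13, of CD-LFD Ripk3-/- against WT (1) from 0 to 1 and of CD-LFD Mlkl-/- against WT (3) from 0 to 2. The Mlkl-/- interaction ran from 0 to 2 on the CD-HFD (0) and from 3 to 9 on the CD-LFD (5).

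Control Ripk3-/- against WT gave 1 gene with the clock ratio, 1 without WT control replicates 5 and 6, 1 without the doubtful labels and 0 with only the compared groups. Control Mlkl-/- against WT gave 5 with only the compared groups and 7 without WT control replicates 5 and 6. CD-LFD Ripk3-/- against WT gave 0 with library size alone, the clock ratio or only the compared groups, 3 with no count filter and 2 with 10 counts in 3 libraries. CD-LFD Mlkl-/- against WT gave 0 with library size alone or the clock ratio. The Mlkl-/- interaction on the CD-HFD gave 1 with no count filter, by DESeq2 and without the doubtful labels, and that on the CD-LFD gave 3 with library size alone and 11 by DESeq2. The cause of these shifts was not tested.

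Replicate numbers are shared between groups, but do not pair the samples: over 146 same-number pairs the correlation of deviations ran from -0.349 to 0.545 (median -0.0114), and 13 of 44 libraries correlated best with their own number. With a replicate block 34 genes were called in WT CD-HFD, 26 in WT CD-LFD, 0 in each CD-LFD knockout against WT, 1 in the Mlkl-/- CD-HFD interaction and 6 in that on the CD-LFD. Genes under the floor on 1 side cannot be sized at this depth.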
